A study of Mus musculus with 10 samples.

Results

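The presynaptic vesicle and release machinery was described through 37 named genes, comprising the SNARE proteins and the factors that take them apart, calcium sensors and release regulators, vesicle membrane proteins, active zone scaffolds, enzymes and transporters that make and load transmitter, and endocytic proteins. Each gene was represented by the Ensembl transcript with the highest mean RNAseq count. A transcript was found for 35 of the 37 genes, out of 13184 genes in the counts. Syp and Slc17a6 were matched to no counted transcript and are not analysed here. Of the 35, 14 were measured, meaning that RNAseq and ribosome footprinting (RF) both reached 10 RPKM (reads per kilobase of sequence, scaled to library size) in the same culture for 2 or more cultures: Snap25, Vamp2, Nsf, Syt4, Syt11, Cplx1, Cplx2, Cadps, Rab3a, Syn1, Scamp5, Gad2, Bin1 and Synj1.

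Neurotransmitter is released when a synaptic vesicle fuses with the plasma membrane. SNARE proteins on both membranes zipper together to drive fusion, synaptotagmins and complexins couple it to calcium entry, and scaffolds of the active zone hold primed vesicles near calcium channels. After fusion the SNARE complex is taken apart by NSF and its adaptor proteins, and the vesicle membrane is recovered by endocytosis.

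The cells were primary cortical cultures from newborn (P0) FVB mice of both sexes, a mixture of neurons and glia, grown for 7 days in vitro. Untreated cultures 1, 2 and 3 were compared with cultures 4 and 5, which received 55 mM KCl for 3 h, a treatment that depolarizes neurons. All cultures received cycloheximide, which stops elongating ribosomes, before lysis. RNAseq, which measures transcript abundance, and RF, which sequences the fragments of mRNA protected by ribosomes, were made from the same cultures, and a further KCl replicate had been removed by the authors for its small library. Nothing in the labels says whether the cultures came from separate litters, so p-values measure the spread between these cultures.

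RNAseq libraries held 3056286 to 3629959 reads and RF libraries 1463654 to 7719915, with untreated culture 3 and KCl culture 4 the shallowest in RF. Markers of glia and of neurons were both present. The summed RPKM of 10 astrocyte markers was 2588 to 3370 in RNAseq, against 174 to 220 for the 8 neuronal markers found of 10 listed. The oligodendrocyte lineage markers (10 of 10 found) summed to 1299 to 1500, the microglial ones (8 of 10) to 165 to 195, the fibroblast ones (4 of 5) to 126 to 165 and the endothelial and mural ones (7 of 8) to 20.9 to 35.4. Of the endothelial markers, Pecam1 had no RNAseq read in untreated culture 1 and at most 0.432 RPKM elsewhere, while Cdh5 had 2.58 to 4.48 RPKM.

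The start codon context is shown for 7 transcripts because ribosomes that scan the 5′UTR begin the coding sequence (CDS) there. All but Syn1 are transcripts on which the results below turn, or that lie near the ends of the range of translation efficiency. Translation efficiency (TE) is the ratio of CDS RF RPKM to RNAseq RPKM. The contexts of Syt4 and Bin1 are not shown. The 9 bases before the start codon and the 6 from its first base were read from the GRCm38 transcripts, 5′ to 3′, with the start codon in capitals.
Syt1: gaaccaaaaATGgtg
Syngr3: gtgcccgcaATGgag
Snap25: accagtaccATGgcc
Cplx2: gcctgcaggATGgac
Syn1: gccgccaccATGaac
Pclo: cgccgagccATGggc
Bsn: ctgcccaccATGggc
Every context shown has an A or G 3 bases before the ATG, and all but that of Syn1 have a G directly after it. Both features together were present in 23 of the 35 transcripts (65.7%), against 43.5% of the 7157 measured transcripts with a readable context. Among the transcripts shown, both features were present at both ends of the TE range, in Syt1 and Syngr3 at the high end and in Bsn and Pclo at the low end. These are picked examples. Vamp1, also at the high end but not shown, has no G after the ATG, and a relation of context to TE was not tested. At least 1 upstream ATG lay in the 5′UTR of 15 of the 35 (42.9%) and of 50.8% of the measured transcripts, and the median 5′UTR length was 174 bases against 176 bases.

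At baseline, in the untreated cultures, the presynaptic transcripts spanned more than 2 orders of magnitude in abundance. The 35 had RNAseq levels of 0.372 to 90.8 RPKM with a median of 7.19, and RF levels of 1.84 to 292 RPKM with a median of 22.3. The median RNAseq level of all 7262 measured transcripts was 21.1 RPKM and their median RF level 36.5. These had all passed a minimum level that most of the 35 had not, so the medians are not like for like. The transcript used passed for 14 of the 35 genes, and any transcript passed for 4369 of the 13184 genes matched. The 14 measured ones had medians of 22.8 RPKM in RNAseq and 38.4 in RF, but they were kept because they passed a minimum level. In bulk cultures, fewer neurons and less RNA per neuron cannot be told apart.

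**Figure D1:**
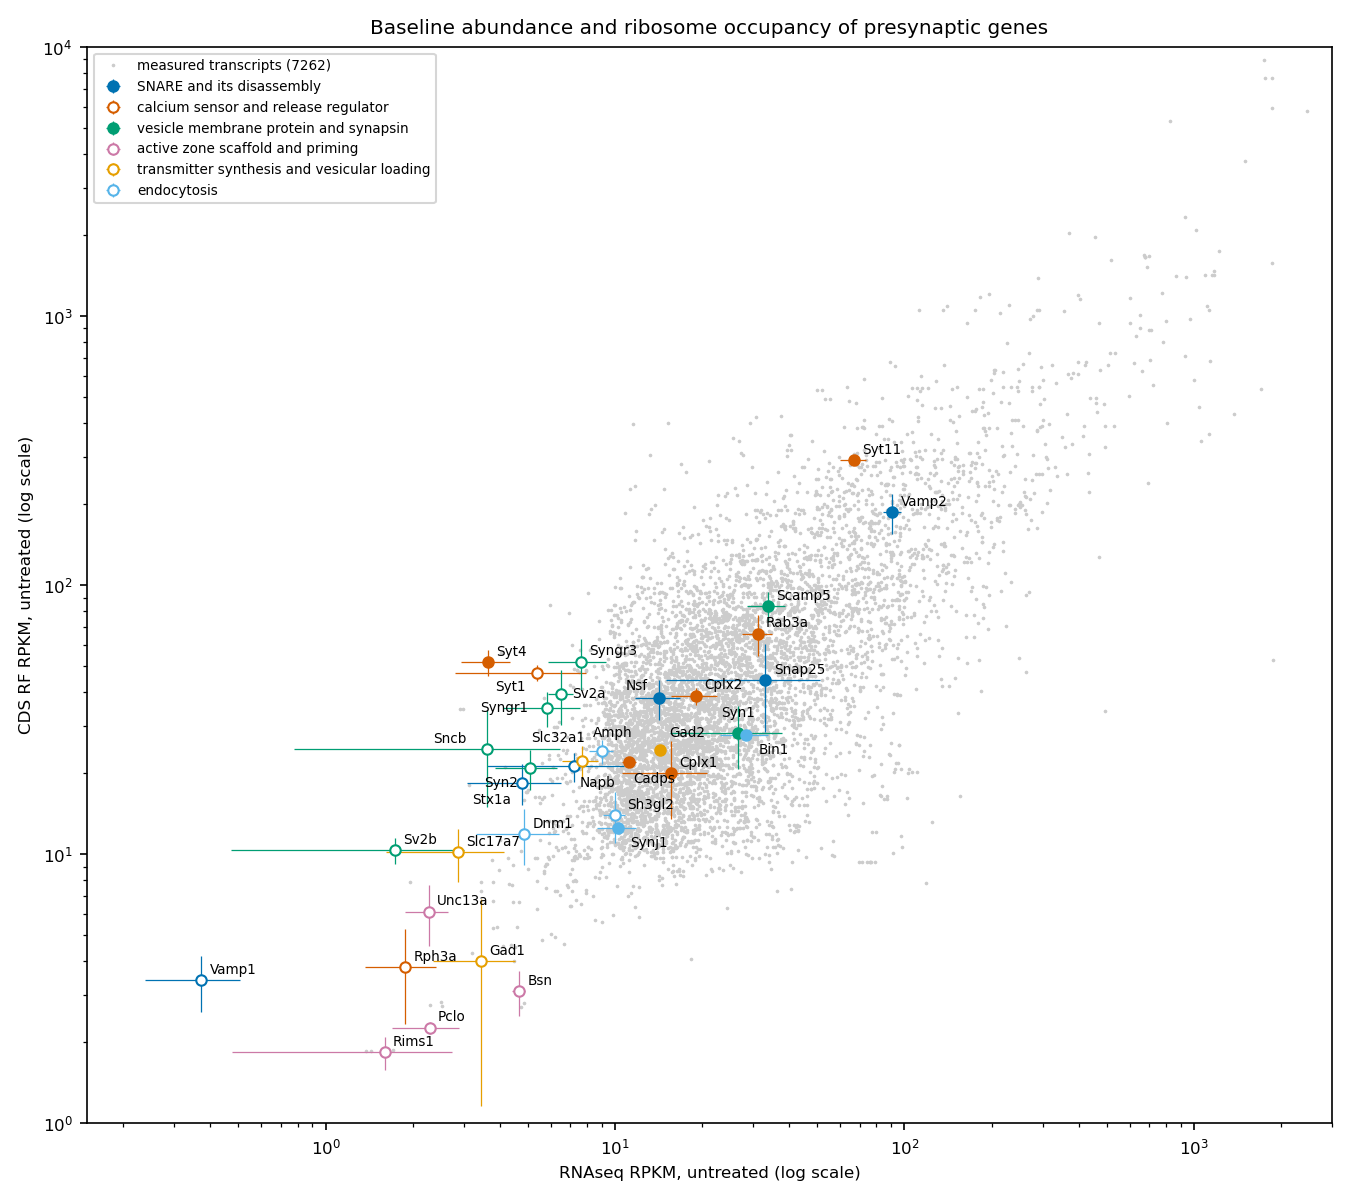
Baseline levels of the 35 presynaptic transcripts, with the mean RNAseq RPKM of the 3 untreated cultures on the x axis and the mean CDS RF RPKM on the y axis, both on log scales, and with error bars of 1 SD. Filled points are measured and open points lay below the filter, colours mark the role, and grey points are the 7262 measured transcripts. Vamp2 and Syt11 lie at the upper right, Syt4 stands above the other presynaptic transcripts of its abundance, and the active zone scaffolds lie at the lower left.

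The most abundant transcript differed in level between the role groups. Among the SNARE genes it was Vamp2, the vesicle SNARE synaptobrevin 2 (chr11:69088490-69092384, plus strand). Vamp2 had RNAseq levels of 98.7, 87.5 and 86.3 RPKM in untreated cultures 1 to 3 and of 84.3 and 94.7 RPKM in KCl cultures 4 and 5. In RF it had 183, 157 and 220 RPKM untreated and 183 and 171 RPKM with KCl, so the groups overlapped in both assays. Vamp1, the other synaptobrevin, was the least abundant of all 35, at 0.372 ± 0.134 RPKM (SD, n = 3) from 2 to 4 reads per untreated culture.

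Syt11, a synaptotagmin that does not bind calcium in the way Syt1 does, led the calcium sensors and regulators. Its RNAseq levels were 74.8, 62.9 and 62.8 RPKM untreated and 66.8 and 60.1 RPKM with KCl. RF gave 296, 284 and 297 RPKM untreated and 279 and 319 RPKM with KCl, the highest of the 35 and at the 96.3 percentile of measured transcripts. The classical fast calcium sensor Syt1 had 5.36 ± 2.56 RPKM in RNAseq and 47.3 ± 3.21 RPKM in RF (SD, n = 3).

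Scamp5, a membrane protein of vesicles, was the most abundant of its group, at 27.9, 36.2 and 37.0 RPKM in RNAseq untreated and 24.3 and 30.4 RPKM with KCl. Gad2, which makes the inhibitory transmitter GABA, led the enzymes and loading transporters at 14.7, 14.1 and 14.3 RPKM untreated and 16.3 and 17.7 RPKM with KCl. Bin1, an amphiphysin that bends membranes and is also made by glia, led the endocytic group at 25.8, 24.8 and 34.6 RPKM untreated and 28.7 and 28.6 RPKM with KCl. Of the Bin1 reads, 62.8% fell in a region marked by a letter that is not explained, and its level includes them. Both KCl cultures lay above all untreated ones for Gad2, while for Scamp5 and Bin1 the groups overlapped.

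The active zone genes were rare. Bsn, which encodes the giant scaffold Bassoon, was the most abundant of the group at 4.84, 4.38 and 4.75 RPKM in RNAseq untreated and 4.99 and 6.36 RPKM with KCl. RF gave 3.55, 2.43 and 3.33 RPKM untreated and 3.32 and 3.07 RPKM with KCl. The summed RF level of the 4 active zone genes was 10.9 to 15.7 RPKM over the 5 cultures, the least of the 6 role groups.

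The untreated cultures differed from each other in these genes as a group. RNAseq was highest in culture 1 for 28 of the 35 genes, while 37.2% of measured transcripts were highest there. RF was lowest in culture 2 for 29 of the 35, against 35.8% of measured transcripts. The summed RNAseq RPKM of the 35 was 578, 438 and 476 in untreated cultures 1 to 3 and 508 and 510 with KCl, so the KCl sums lay inside the untreated range. The 8 neuronal markers summed to 209, 174 and 220 RPKM untreated and 192 and 191 with KCl in RNAseq, and to 502, 336 and 514 untreated and 501 and 568 with KCl in RF. Both sums of neuronal markers were lowest in untreated culture 2. In RNAseq, Stmn2, Nefl, Nefm, Eno2 and Reln were each lowest there among the untreated cultures, while Tubb3, Rbfox3 and Elavl4 were not. The part of the neuronal markers in the results was not tested.

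**Figure D2:**
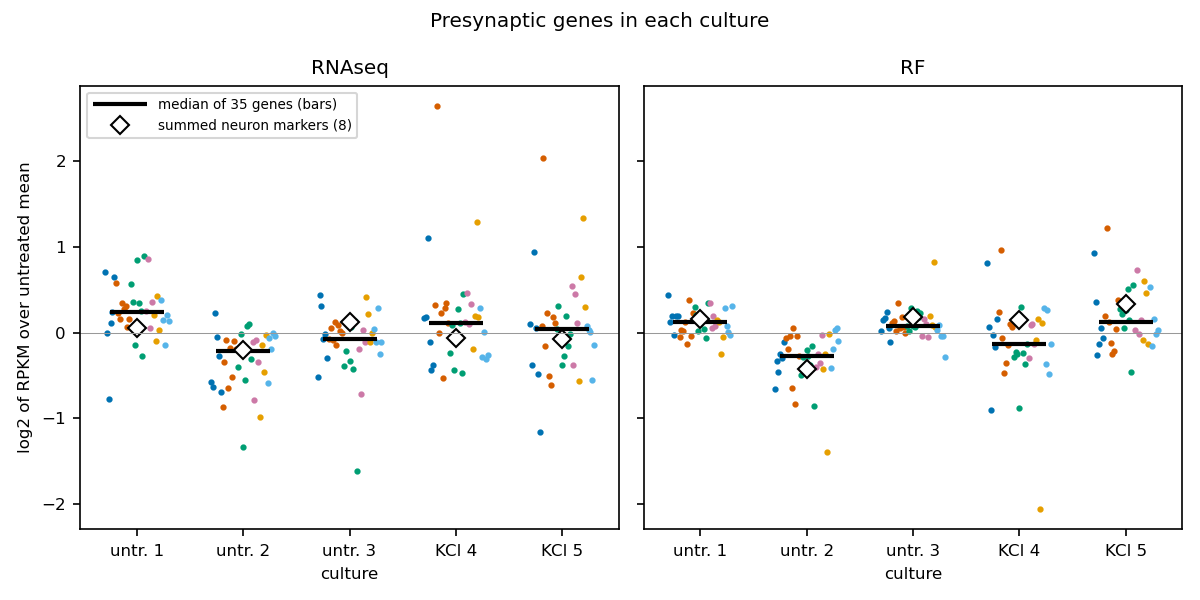
Each dot is 1 of the 35 presynaptic transcripts in 1 culture, coloured by role as in the plot of baseline levels, with the log2 of its RPKM over the untreated mean on the y axis and the 5 cultures on the x axis, for RNAseq (left) and RF (right). Black bars are the medians of the 35 and diamonds the summed RPKM of 8 neuronal markers over its untreated mean. Both fall lowest in untreated culture 2 in RF, and the single dot far above the others in KCl cultures 4 and 5 in RNAseq is Syt4.

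TE varied widely among the presynaptic transcripts. The median TE of the 14 measured ones was 2.02, against 1.68 for all measured transcripts, with quartiles of 1.09 and 2.63. By culture the median of the 14 was 1.73, 1.90 and 2.07, and that of all measured transcripts 1.66, 1.66 and 1.67. With RNAseq reads of all regions, the 35 ran from 0.663 for Bsn to 14.4 for Syt4. Both ends change when RNAseq is counted on the CDS alone, as given below.

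Syt4 (chr18:31437808-31447406, minus strand) encodes a synaptotagmin of dense-core and other vesicles that is known as a gene induced by activity. Its TE was 12.4, 15.8 and 15.1 in the untreated cultures, at the 99.8 percentile of measured transcripts, from 37 to 55 RNAseq reads and 107 to 538 CDS footprints per culture. The untreated RNAseq mean of Syt4 was 3.6 RPKM, while measured transcripts had to reach 10 RPKM in 2 or more cultures. That filter can leave out transcripts with little RNA and a high TE, so the percentile depends on it. Vamp1, Syt1 and Sncb, the last encoding beta-synuclein, had mean TE values above 10, at 10.6 ± 6.41, 10.4 ± 4.84 and 11.3 ± 11.4 (SD, n = 3). These spreads are wide, so the order of Syt4, Sncb, Vamp1 and Syt1 is not resolved.

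Bsn had a TE of 0.734, 0.554 and 0.701, at the 7.96 percentile. Pclo, which encodes the related scaffold Piccolo, had 0.814, 1.24 and 1.03. Bin1, with 1.08, 1.14 and 0.777, was lowest of the 14 measured transcripts. These places hold only for RNAseq reads of all regions.

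TE divides by RNAseq reads from the whole transcript, and those reads were spread unevenly along the presynaptic transcripts. Over the 5 cultures, the median share of RNAseq reads on the 3′UTR was 67.0% among the 35 and 46.7% among all measured transcripts, and the median share on the CDS was 27.2% against 44.5%. These shares also depend on how much of a transcript each region takes up, so reads were next set against length. In 31 of the 35 transcripts, the CDS held a smaller share of the reads than of the transcript's length, compared with 64.3% of measured transcripts. In 11 of the 35 it held less than 0.5 of its length share, compared with 18.9%.

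Cplx2 had 8.16% of its length but 1.77% of its RNAseq reads on the CDS, which left 1 to 9 CDS reads per culture. Gad1 had 1 CDS read in all 5 RNAseq libraries together and 86.4% of its reads on the 3′UTR of the transcript used, a short one of 7 exons. For Bin1, 62.8% of the reads fell in a region that the counts mark with a letter not explained in the sources used here. Pclo stood at the other end, with 93.0% of its reads on the CDS. With RNAseq counted on the CDS only, the median TE of the 14 was 3.30, against 2.13 for all measured transcripts.

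The order of the transcripts in TE also changed with CDS-only RNAseq. Bsn then had a TE of 1.35, 1.06 and 1.34 in untreated cultures 1 to 3 and Pclo 0.761, 1.15 and 0.960, so that Pclo had the lower mean and the ranges overlapped. Bin1 had 2.75, 2.16 and 1.91, above the means of Vamp2, Snap25, Gad2 and Synj1 among the measured transcripts, of which Vamp2 was lowest at 1.16 ± 0.28 (SD, n = 3). Syngr3 had the highest mean, 72.5 ± 56.5 from 7 CDS reads over the 3 cultures, and Syt4 had 35.5 ± 19.4 from 26. Vamp1 and Gad1 had no CDS read in the untreated RNAseq libraries and hence no value.

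**Figure D3:**
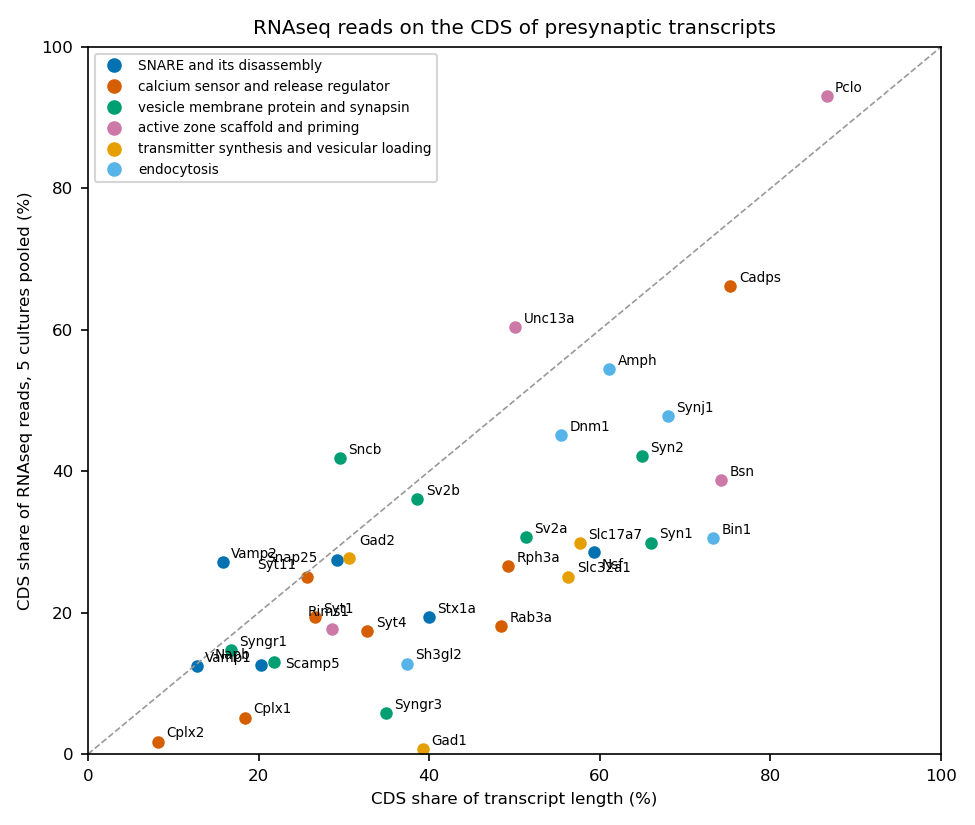
Share of the transcript's length taken by the CDS (x axis, %) and share of its RNAseq reads on the CDS over the 5 cultures pooled (y axis, %) for the 35 presynaptic transcripts, coloured by role. Points below the dashed line of equal shares have fewer reads on the CDS than its length would take, which holds for 31 of 35, with Gad1 and Cplx2 lowest.

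The comparison of KCl with untreated cultures asked which transcripts change in abundance, in ribosome occupancy or in the ratio of both after depolarization. Syt4 rose in RNAseq and RF and fell in TE, Cplx2 fell in RNAseq, and Snap25 rose in RF and TE. The other 11 measured members passed no test. In RNAseq, 1 of the 14 was higher and 1 lower at an edgeR adjusted p under 0.05, where 17.5% of all measured transcripts were higher and 15.7% lower. In RF, 2 were higher and 0 lower (3 had an unadjusted p under 0.05), where 20.9% of measured transcripts were higher and 20.0% lower. In TE, 1 was higher and 1 lower, where 1.58% and 4.24% of measured transcripts were. The median log2 fold change of the 14 was -0.0048 in RNAseq, 0.02 in RF and 0.11 in TE, beside -0.01, -0.01 and 0.02 over all measured transcripts. Syt4, which is among the calls of each test, passed the minimum level only through KCl cultures 4 and 5. Synj1 passed it only through untreated cultures 1 and 2. The counts and medians of the 14 therefore depend in part on that filter.

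**Figure D4:**
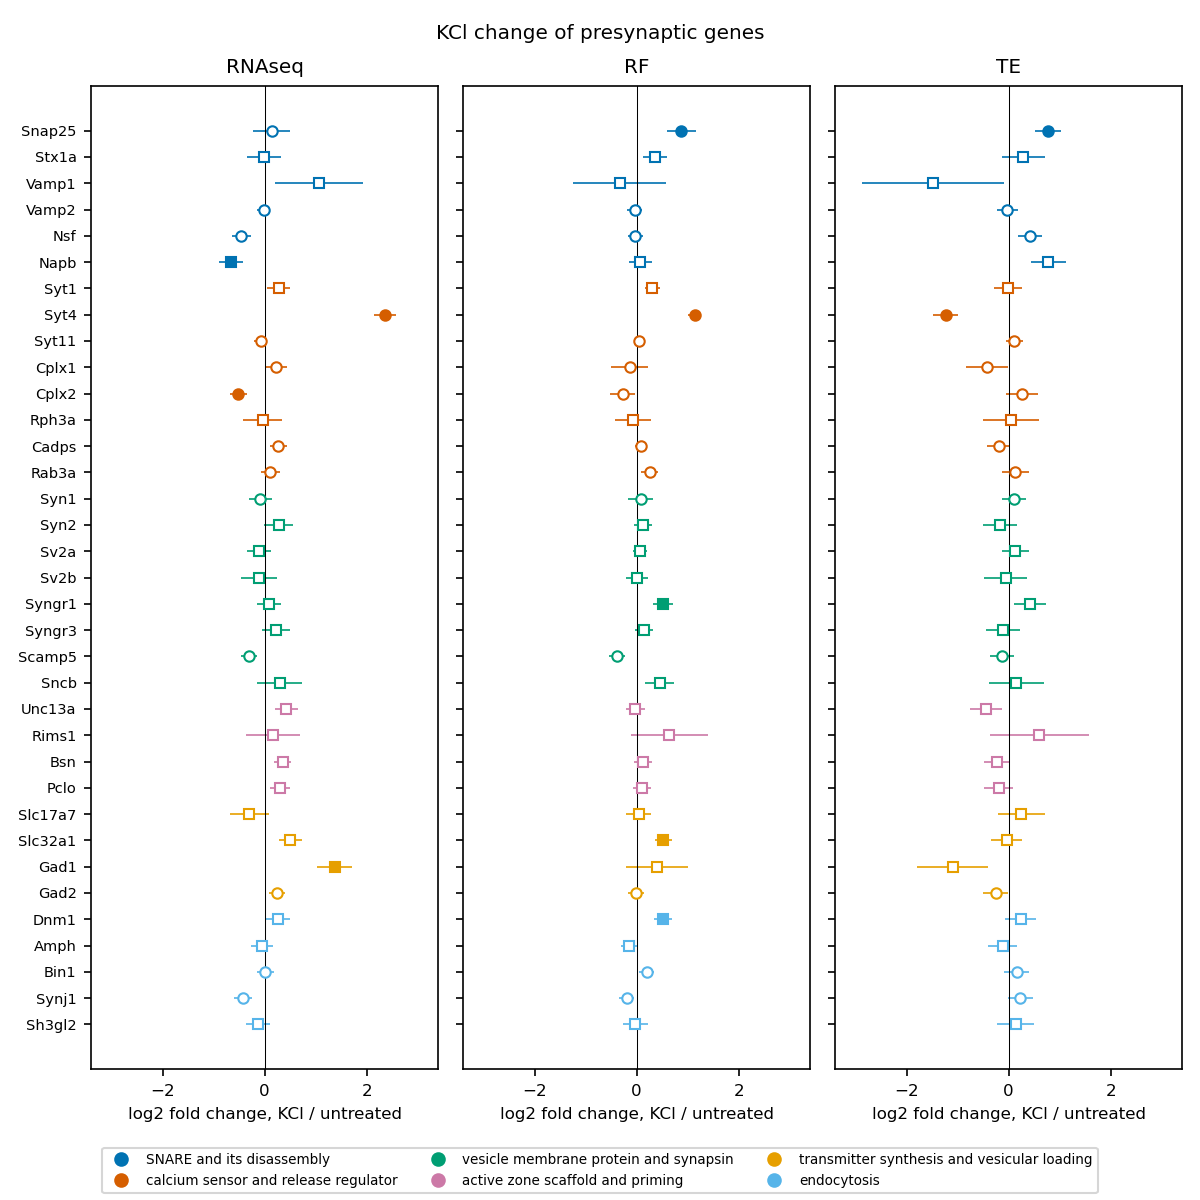
Log2 fold change of KCl over untreated cultures (x axis) in RNAseq, RF and TE for the 35 presynaptic transcripts (y axis), coloured by role, with bars of 1 standard error. Circles are measured transcripts in the filtered fit and squares the others in the fit without the filter, and filled symbols have an adjusted p under 0.05. Syt4 lies far to the right in RNAseq and RF and to the left in TE, and most other transcripts lie close to 0.

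Syt4 made the largest change of the 35 in RNAseq. Its level was 4.28, 2.88 and 3.77 RPKM in untreated cultures and 22.8 and 15.0 RPKM with KCl, from 37 to 55 reads untreated and 205 to 279 reads with KCl. The log2 fold change was 2.37 ± 0.21 (SE) with an adjusted p of 4.0e-12. Its RF levels were 52.9, 45.6 and 56.9 RPKM untreated and 101 and 120 RPKM with KCl, a log2 fold change of 1.14 ± 0.12 (SE) with an adjusted p of 2.2e-08. Both KCl cultures lay above every untreated culture in both assays.

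The TE of Syt4 was 4.43 and 8.05 in the KCl cultures, below all untreated values, with a log2 fold change of -1.24 ± 0.25 (SE) and an adjusted p of 0.000106. Without KCl culture 4 the TE change was -0.82 with an adjusted p of 0.227, and with RNAseq counted on the CDS alone it was -1.14 with an adjusted p of 0.0683. Syt4 passed the minimum level only through the KCl cultures, so it could enter the measured set only if it was high there. In the fit without the filter its log2 fold changes were 2.43 in RNAseq, 1.21 in RF and -1.23 in TE, all with an adjusted p under 0.05. Even after the fall, its TE with KCl, 6.24 ± 2.56 (SD, n = 2), was above the upper quartile of 2.63 for all measured transcripts at baseline.

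Syt11, set beside Syt4, had log2 fold changes of -0.07 ± 0.13, 0.04 ± 0.09 and 0.11 ± 0.17 (SE) in RNAseq, RF and TE, none of which passed the test.

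Snap25 (chr2:136713453-136782428, plus strand) encodes the plasma membrane SNARE that pairs with syntaxin and synaptobrevin. Its RF levels were 60.1, 28.2 and 45.0 RPKM untreated and 78.1 and 84.8 RPKM with KCl, with both KCl cultures above all untreated ones. The RF log2 fold change was 0.88 ± 0.29 (SE) with an adjusted p of 0.0325. Its RNAseq levels were 53.9, 22.2 and 23.1 RPKM untreated and 37.4 and 35.4 RPKM with KCl, a log2 fold change of 0.14 ± 0.37 (SE) with an adjusted p of 0.818. In RNAseq, untreated culture 1 was the highest of the 5 cultures, and both KCl cultures lay above untreated cultures 2 and 3.

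The TE of Snap25 was 1.11, 1.27 and 1.95 untreated and 2.09 and 2.39 with KCl, a log2 fold change of 0.77 ± 0.26 (SE) with an adjusted p of 0.0472. This call stood close to the threshold. The adjusted p was 0.251 by DESeq2, 0.657 without the culture as a block, and 0.2 without untreated culture 1. Without that culture the RNAseq log2 fold change of Snap25 was 0.68 with an adjusted p of 0.00112. The RF call was lost without untreated culture 3, KCl culture 4 or KCl culture 5, with log2 fold changes of 0.88, 0.93 and 0.80 close to the value from all cultures and adjusted p of 0.089, 0.0766 and 0.204. Its size moved with the untreated cultures, to 1.33 without culture 1 and 0.54 without culture 2, and the call held in both.

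Cplx2 (chr13:54371349-54383917, plus strand) encodes complexin 2, which binds the SNARE complex and holds or promotes fusion. Its RNAseq levels were 23.1, 16.9 and 17.2 RPKM untreated and 13.2 and 13.4 RPKM with KCl, with both KCl cultures below all untreated ones. The log2 fold change was -0.52 ± 0.16 (SE) with an adjusted p of 0.0122. The call was lost without KCl culture 4 or KCl culture 5 at nearly the same log2 fold changes, -0.51 and -0.53 (adjusted p = 0.0776 and 0.0635), and without untreated culture 1 at -0.36 (adjusted p = 0.0649). The call was also lost with RNAseq counted on the CDS alone, at -1.67 (adjusted p = 0.163) from 1 to 9 CDS reads per culture. Of the Cplx2 RNAseq reads, 97.4% lay on the 3′UTR. Its RF levels were 35.6, 40.4 and 40.5 RPKM untreated and 30.4 and 32.6 RPKM with KCl, from 19 to 114 footprints. The RF log2 fold change of -0.27 ± 0.24 (SE) did not pass (adjusted p = 0.398).

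Cplx1, the other complexin of forebrain neurons, had RNAseq levels of 19.9, 9.98 and 17.1 RPKM untreated and 18.3 and 18.3 RPKM with KCl. Its log2 fold change was 0.23 ± 0.21 (SE) in RNAseq (adjusted p = 0.452) and -0.13 ± 0.36 (SE) in RF, from 9 to 70 footprints per culture. The difference between both complexins in their response was not tested.

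**Figure D5:**
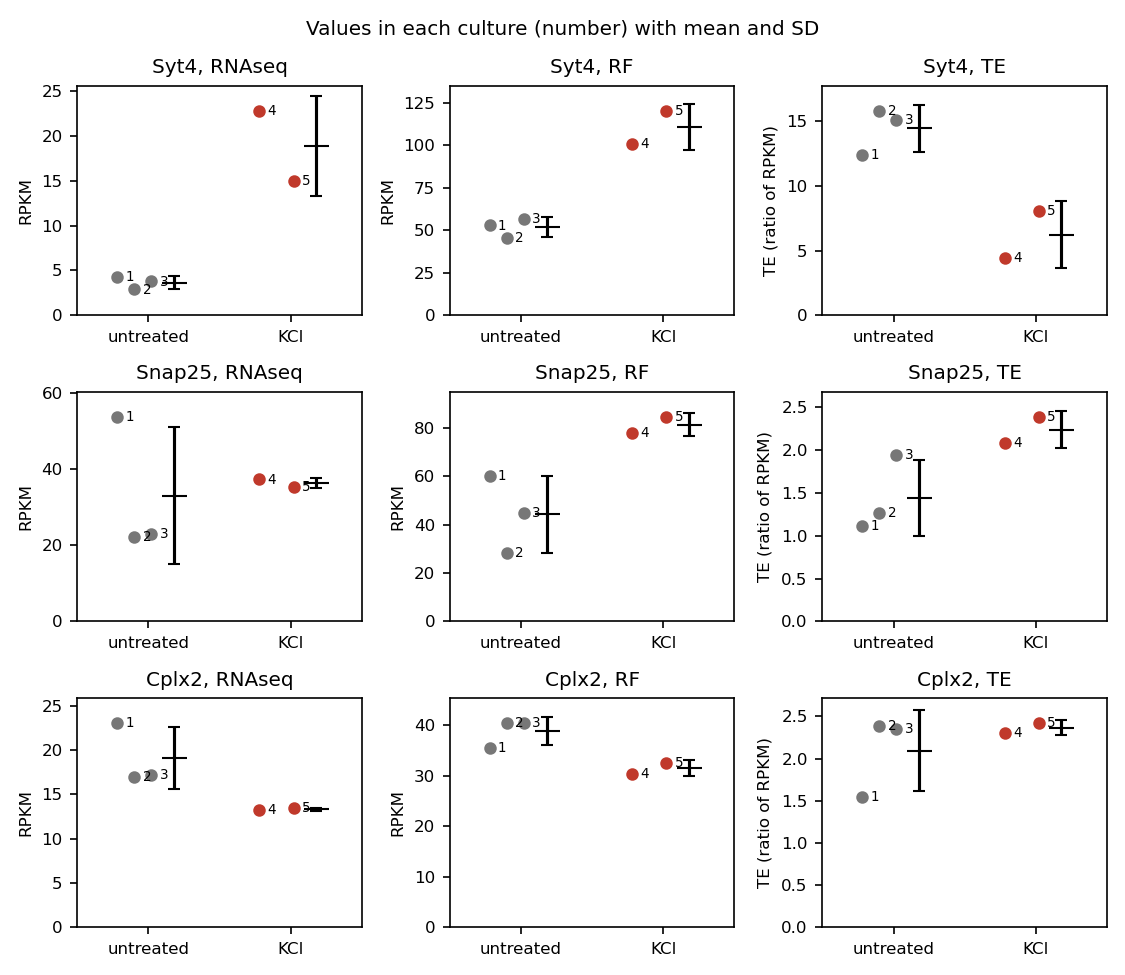
Values of Syt4, Snap25 and Cplx2 (rows) in each culture for RNAseq RPKM, CDS RF RPKM and TE (columns), with untreated cultures 1 to 3 in grey, KCl cultures 4 and 5 in red, and the mean and SD beside each group. For Syt4 all 3 quantities separate the groups, for Snap25 RF and TE do, and for Cplx2 RNAseq and RF do.

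The other measured SNARE genes and regulators had log2 fold changes nearer to 0 than the called changes. Nsf, the ATPase that takes spent SNARE complexes apart, had RNAseq levels of 16.8, 11.8 and 14.1 RPKM untreated and 10.6 and 10.2 with KCl, a log2 fold change of -0.46 ± 0.19 (SE) with an adjusted p of 0.0582. Its RF log2 fold change was -0.02 ± 0.14 (SE). Vamp2 had -0.02 ± 0.13 in RNAseq and -0.04 ± 0.15 (SE) in RF. Of these genes Nsf lay closest to a call.

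Cadps, a priming factor for dense-core vesicles, had 0.27 ± 0.16 in RNAseq and 0.08 ± 0.12 in RF (SE). Rab3a, the small GTPase on vesicles that binds active zone proteins, had 0.11 ± 0.19 in RNAseq and 0.25 ± 0.17 in RF (SE). Neither gene passed a test in any of RNAseq, RF and TE.

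Among the measured vesicle and endocytic proteins, Scamp5 came closest to a call in RF. RF gave 80.3, 75.1 and 95.3 RPKM untreated and 64.8 and 61.0 RPKM with KCl, a log2 fold change of -0.38 ± 0.15 (SE) with an adjusted p of 0.0503. Synj1, the phosphatase that uncoats endocytic vesicles, had RNAseq levels of 11.8, 10.2 and 8.65 RPKM untreated and 8.25 and 6.97 RPKM with KCl, a log2 fold change of -0.43 ± 0.17 (SE) with an adjusted p of 0.0513. Synj1 passed the minimum level only through untreated cultures 1 and 2. In both cases the KCl cultures lay below all untreated ones, without passing the test.

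Syn1, the synapsin that tethers vesicles to each other and to actin, had -0.08 ± 0.23 in RNAseq and 0.08 ± 0.25 in RF (SE). Gad2 had 0.24 ± 0.15 and -0.01 ± 0.16, and Bin1 0.01 ± 0.17 and 0.20 ± 0.14 (SE).

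The 21 found transcripts below the minimum level were read from the fit that kept every transcript with a read. Over all 35 in that fit, 2 were higher (Syt4 and Gad1) and 2 lower (Cplx2 and Napb) in RNAseq, where 10.4% of transcripts were higher and 8.62% lower. In RF, 5 were higher (Syt4, Snap25, Slc32a1, Dnm1 and Syngr1) and 0 lower, where 13.7% and 12.2% were (7 of the 35 had an unadjusted p under 0.05). In TE, Syt4 was lower and 0 were higher (3 of the 35 had an unadjusted p under 0.05), where 0.469% of transcripts were higher and 1.23% lower.

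Of the GABA genes below the minimum, Slc32a1 passed in RF only and Gad1 in RNAseq only. Slc32a1, the transporter that loads GABA into vesicles, had RF levels of 24.3, 18.8 and 23.7 RPKM untreated and 24.9 and 33.7 RPKM with KCl, a log2 fold change of 0.53 ± 0.17 (SE) with an adjusted p of 0.00985. Its RNAseq levels were 7.14, 6.94 and 8.90 RPKM untreated and 8.75 and 11.98 with KCl, and the log2 fold change of 0.51 ± 0.23 (SE) did not pass (adjusted p = 0.119). In RNAseq the groups overlapped, since untreated culture 3 lay above KCl culture 4.

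Gad1, the second GABA-synthesizing enzyme, had RNAseq levels of 4.62, 2.49 and 3.18 RPKM untreated and 8.39 and 8.66 RPKM with KCl, from 14 to 52 reads, with a log2 fold change of 1.38 ± 0.34 (SE) and an adjusted p of 0.00082. This rise was carried by reads outside the CDS, where nearly all its RNAseq reads lay. The transcript used, 1 of 3 Gad1 transcripts in the counts, has 7 exons and a CDS of 669 bases, against 1755 for Gad2. The rise is therefore that of this short transcript, and the other Gad1 transcripts are not given here. Gad2 beside Gad1 had 0.31 ± 0.16 (SE) in the same fit (adjusted p = 0.172). Slc17a7, which loads glutamate, had -0.30 ± 0.39 in RNAseq and 0.04 ± 0.24 in RF (SE) from 14 to 35 RNAseq reads, and did not pass.

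Dnm1, the dynamin that severs endocytic vesicles, had RF levels of 14.5, 8.999 and 12.2 RPKM untreated and 14.6 and 17.2 RPKM with KCl, a log2 fold change of 0.52 ± 0.18 (SE) with an adjusted p of 0.0174. Untreated culture 1 and KCl culture 4 were nearly equal. Syngr1, a vesicle membrane protein, had RF levels of 39.1, 29.0 and 36.7 RPKM untreated and 43.1 and 49.8 RPKM with KCl, a log2 fold change of 0.52 ± 0.19 (SE) with an adjusted p of 0.0311. A second Syngr1 transcript, which reached the minimum level, did not pass in RF in the filtered fit (0.51, adjusted p = 0.0666). In RNAseq the log2 fold change was 0.09 ± 0.24 (SE) without the filter for the one used and -0.48 with it for the second. These come from different fits, so their signs cannot be compared. Neither RNAseq estimate passed. For Slc32a1, Dnm1 and Syngr1 the lowest RF value was that of untreated culture 2. Among the untreated cultures this held for 29 of the 35 genes. The RF sum of the 8 neuronal markers was also lowest there, though not each single marker. The part of that culture in these calls was not tested.

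Napb, the brain form of the adaptor that brings Nsf to SNARE complexes, had RNAseq levels of 11.3, 4.47 and 5.86 RPKM untreated and 5.55 and 3.22 RPKM with KCl, a log2 fold change of -0.65 ± 0.24 (SE) with an adjusted p of 0.0329. With edgeR's filterByExpr in place of no filter it did not pass (-0.65, adjusted p = 0.092). The groups overlapped, since untreated culture 2 lay below KCl culture 4. Its RF log2 fold change was 0.08 ± 0.23 (SE).

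The remaining paralogs and scaffolds passed no test. Sv2a and Sv2b, the vesicle glycoproteins, had RNAseq log2 fold changes of -0.11 ± 0.23 and -0.11 ± 0.36 (SE) from levels of 6.53 ± 0.65 and 1.74 ± 1.26 RPKM untreated (SD, n = 3). Syn2 had 0.27 ± 0.29 and Syngr3 0.22 ± 0.28 in RNAseq (SE). Vamp1 had 1.07 ± 0.86 (SE) in RNAseq, from at most 7 reads per culture.

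Among the active zone genes, Bsn had RNAseq log2 fold changes of 0.35 ± 0.16 (SE) with an adjusted p of 0.114 and Pclo 0.29 ± 0.19 (SE) with an adjusted p of 0.327. Unc13a, the priming factor Munc13-1, had 0.42 ± 0.23 (SE) with an adjusted p of 0.202. Rims1, which tethers calcium channels, had 0.16 ± 0.53 (SE) from 7 to 22 reads per culture on a short transcript of 6 exons. All 4 estimates were above 0 in RNAseq and none passed, while in RF they ran from -0.03 for Unc13a to 0.64 for Rims1.

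Stx1a, the plasma membrane syntaxin, had -0.01 ± 0.34 in RNAseq and 0.36 ± 0.24 in RF (SE). Syt1 had 0.27 ± 0.23 in RNAseq and 0.31 ± 0.15 in RF (SE), the latter with an adjusted p of 0.106. Rph3a, a Rab3 effector, and Sncb had -0.04 ± 0.38 and 0.29 ± 0.44 in RNAseq (SE). Amph and Sh3gl2, both of which act in endocytosis, had -0.05 ± 0.22 and -0.13 ± 0.23 (SE). These transcripts had 5 to 126 RNAseq reads per culture.

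Of 94 further presynaptic genes, 79 had a transcript in the counts and 36 were measured. In RNAseq 8 of the 36 were higher (22.2%) and 3 lower (8.33%), beside the 17.5% and 15.7% of all measured transcripts. Among the rises were those of the SNARE Snap29 (log2 fold change 0.70 ± 0.18, SE) and of the clathrin adaptor Picalm (0.69 ± 0.15). The largest falls were those of Syngr2 (-1.16 ± 0.22), Syt6 (-1.11 ± 0.20) and the syntaxin Stx6 (-0.60 ± 0.18). Several of these genes act in trafficking in most cells, so the list is not restricted to neurons.

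In RF, 8 of the 36 were higher (22.2%) and 7 lower (19.4%), beside the 20.9% and 20.0% of all measured transcripts. The largest rises were those of Picalm (0.73 ± 0.09, SE), Snap23 (0.69 ± 0.16) and Snap29 (0.64 ± 0.16), and the largest falls those of the endocytic adaptor Epn1 (-1.45 ± 0.20), Syt6 (-1.01 ± 0.23) and the vesicle protein Synpr (-0.66 ± 0.18). In TE, Lin7c, a presynaptic adaptor, was higher (0.69 ± 0.21) and Epn1 lower (-1.28 ± 0.30), 1 of 36 in each direction (2.78%), beside 1.58% and 4.24% of all measured transcripts.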

How the data were processed

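After trimming (Trimmomatic 0.32) and rRNA removal (STAR 2.3.1z8), the authors mapped reads by Bowtie2 2.2.2 to an mm10 transcriptome with multi-mapped reads kept, and deposited the read counts per transcript region that bedtools 2.20.1 gave, without normalization. Regions are marked by letters, and those of the 5′UTR, CDS and 3′UTR were assigned from their read shares and annotated lengths. A read is counted on every isoform that it matches.

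Of 22534 transcripts, 22172 were matched to the GRCm38 annotation, and 7262 passed the minimum of 10 RPKM. RNAseq counts were those of all regions and RF counts those of the CDS. For each gene the transcript with most RNAseq reads on average was used, and per-culture RPKM used TMM library sizes. The members, the other gene lists and the tests were chosen with earlier results of these data known.

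KCl and untreated libraries were compared with the quasi-likelihood F test of edgeR 4.0.16 (R 4.3.3), with robust dispersions, TMM within each assay and Benjamini-Hochberg adjustment over all measured transcripts (threshold 0.05). Standard errors are the log2 fold change divided by the square root of F. The test of TE was the assay-by-treatment interaction, blocked by culture, because the methods state that both libraries of a culture came from 1 lysate. Deviations from the group mean in RNAseq and RF of the same culture correlated at -0.07, -0.05 and 0.07 for untreated cultures 1 to 3. The KCl cultures gave 0.02, which is 1 value, since the deviations of 2 cultures from their mean mirror each other. A permutation of 3 against 2 cultures has 10 splits, so its smallest exact p is 0.1, and none is given. Alternatives were DESeq2 1.42.0, other scalings and filters, gene sums, CDS-only RNAseq and leaving out each culture.

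Values are given in each culture for members with an adjusted p under 0.05, for those with the highest and lowest baseline TE and for the most abundant of each role. Paralogs stand side by side, and of the 94 further genes the 3 largest rises and falls per test are named, except 1 that is not reported here. Values in each culture of Nsf, Scamp5, Synj1, Pclo, Cplx1 and Bin1 are given in addition.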

Additional observations from a re-analysis of the deposited data

Results flagged for a closer look

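Footprints in the 5′UTR, which enter no comparison of the report, were read for the 14 transcripts with at least 30 of them over the 5 RF libraries. In 2 of the 14, both KCl cultures lay above every untreated culture, as they did in 22.8% of the 4271 measured transcripts with as many footprints, so the count does not exceed the background. Cadps had 3.01, 1.61 and 0.678 5′UTR footprints in CPM (reads scaled to library size) in untreated cultures 1 to 3 and 5.79 and 6.38 in KCl cultures 4 and 5, a ratio of the means of 3.45. These values rest on 24, 11 and 1 footprints untreated and 9 and 19 with KCl. Slc32a1 had 3.39, 2.19 and 4.75 CPM untreated and 7.08 and 6.72 with KCl, a ratio of 2.0, from 7 to 27 footprints untreated and 11 and 20 with KCl. Neither difference was tested, and what sets it was not tested. Positions of single footprints are not in the counts, so footprints at the start codon cannot be told apart from those further upstream.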

How the results depend on the processing

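For Syt4, Snap25 and Cplx2, no called direction was reversed under an alternative, while the calls of members below the minimum level were not followed through every alternative. In RNAseq, the 2 calls became 4 with library totals and with all 10 libraries in 1 fit (Nsf and Synj1 added, both lower), 4 with no filter (35 tested) and 1 (Syt4) with CDS reads only, and leaving out 1 culture gave 1 to 3 calls, with 1 left without KCl culture 4 or 5 and with Snap25 and Scamp5 called in place of Cplx2 without untreated culture 1. In RF, the 2 calls became 5 with edgeR's filterByExpr (33 tested) and with no filter, and 1 with all 10 libraries in 1 fit, and leaving out 1 culture gave 1 to 3, with 1 left without untreated culture 3, KCl culture 4 or KCl culture 5. In TE, the 2 calls became 1 (Syt4) with DESeq2, library totals, filterByExpr, no filter, gene sums, TMM over all 10 libraries and without the replicate block, and 0 with RNAseq CDS reads only, while leaving out 1 culture gave 0 to 2, with 0 without KCl culture 4 and 1 without untreated culture 1, untreated culture 2 or KCl culture 5. The cause was not tested. The call of Snap25 in TE was lost in 12 of 14 alternatives, with log2 fold changes of 0.53 to 0.93. Without the pairing of libraries by culture its adjusted p was 0.657, and Syt4 alone was called. The median baseline TE of the 14 was 3.30 with CDS-only RNAseq, against 2.13 for all measured transcripts. Syt4 kept its call in all alternatives of RNAseq (2.03 to 2.64) and RF (0.98 to 1.24). Depth limits the rare members: Vamp1 and Rims1 had at most 11 CDS footprints in any library.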
